A study of Homo sapiens with 43 samples.

Results

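In the breast cancer line HCC1954, a pair of RNA-seq libraries stood apart from the other libraries of their own groups and shifted many genes the same way. They are library 3 of the parental cells in mitogen-low medium (Parental 3 MLM) and library 2 of the derivative LCC1 in mitogen-rich medium (LCC1 2 MRM). Differences were taken on log2(normalized count + 1): Parental 3 MLM minus the mean of Parental 1 and 2 MLM, and LCC1 2 MRM minus LCC1 1 MRM. A gene was a member if its mean over the 14 HCC1954 libraries was at least 100 and it differed by at least 0.5 the same way in both. Of 11696 genes with that mean, 1118 were members: 768 were lower in both (6.57%) and 350 were higher in both (2.99%). The members were chosen by these differences, so the differences are given as a description, without a test. Each is 1 library against its sister libraries, and neither has a replicate. Intervals below are exact 95% intervals for counting error alone.

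HCC1954 is an established breast adenocarcinoma line with amplified ERBB2, and the study also used H2087, a lung adenocarcinoma line. The latency-competent cell derivatives (LCC1 and LCC2 for HCC1954) were recovered from mouse organs that gave no bioluminescence signal. All cultures were subconfluent and were grown for 48 h in MLM or MRM before total RNA was taken. The groups were LCC1 and LCC2 in MLM and in MRM (2 libraries each) and the parental population in MLM and in MRM (3 libraries each).

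Type I and type III interferons bind cell-surface receptors and act through the kinases JAK1 and TYK2. The signal reaches a complex that holds STAT2 and IRF9 and binds the interferon-stimulated response element (ISRE) in the promoters of antiviral genes. The products lead to decay of viral RNA (the OAS enzymes), block its translation (the IFIT proteins) or tag proteins (ISG15), and some cancer lines keep such genes on without any virus.

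Because the interferon stimulated genes were the most densely shifted group, promoters with an ISRE core are shown for 4 of their members. These were the most shifted among members that matched a promoter holding the core. OAS2, MX2, TRIM22 and LAMP3 shifted more than ISG15 and IFI44 but matched no promoter. RSAD2 and XAF1 also shifted more, and their matched promoters held no core. The core was searched as GAAA, any 2 bases and GAAA again, on both strands, in RefSeq promoters of GRCh38.p14 that run from 250 bases before the start to 50 after it. Capitals mark each match, overlapping matches merged. IFI44L lies at chr1:78620198-78620497, IFIT1 at chr10:89392373-89392672, ISG15 at chr1:1013247-1013546 and IFI44 at chr1:78649539-78649838, all on the plus strand.
IFI44L: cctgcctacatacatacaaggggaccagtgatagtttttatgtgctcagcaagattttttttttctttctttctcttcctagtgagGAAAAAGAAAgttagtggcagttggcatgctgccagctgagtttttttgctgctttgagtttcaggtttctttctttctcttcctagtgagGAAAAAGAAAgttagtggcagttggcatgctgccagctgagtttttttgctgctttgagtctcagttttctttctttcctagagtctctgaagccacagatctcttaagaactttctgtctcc
IFIT1: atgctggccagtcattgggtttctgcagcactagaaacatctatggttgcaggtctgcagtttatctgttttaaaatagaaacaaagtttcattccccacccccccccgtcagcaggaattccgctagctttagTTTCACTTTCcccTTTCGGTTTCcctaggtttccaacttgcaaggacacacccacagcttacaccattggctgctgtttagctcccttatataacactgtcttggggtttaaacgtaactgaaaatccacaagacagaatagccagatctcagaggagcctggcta
ISG15: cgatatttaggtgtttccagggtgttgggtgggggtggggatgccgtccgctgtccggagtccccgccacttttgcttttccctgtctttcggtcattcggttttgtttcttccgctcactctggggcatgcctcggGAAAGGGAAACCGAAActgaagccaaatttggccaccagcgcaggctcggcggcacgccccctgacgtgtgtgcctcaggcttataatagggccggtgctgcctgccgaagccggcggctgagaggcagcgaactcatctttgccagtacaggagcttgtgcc
IFI44: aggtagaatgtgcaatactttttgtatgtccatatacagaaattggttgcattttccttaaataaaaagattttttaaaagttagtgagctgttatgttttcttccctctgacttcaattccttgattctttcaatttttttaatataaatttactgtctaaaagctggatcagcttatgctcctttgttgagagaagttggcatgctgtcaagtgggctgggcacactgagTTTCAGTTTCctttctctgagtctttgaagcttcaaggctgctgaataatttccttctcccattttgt
The first matched base lay 164 bases before the start in IFI44L, 116 in IFIT1, 113 in ISG15 and 18 in IFI44. Of the 40 interferon stimulated members, 32 matched a promoter by symbol or older symbol, and 20 of those (62.5%) held the core. Of the 8 genes of that list that were not members, 6 matched and 5 held it. Among all genes with a mean of at least 100, 9531 of 11696 matched, and 256 (2.69%) held it. Of the 728 lower members outside the interferon list, 547 matched and 25 (4.57%) held it, against 6 of 265 higher members (2.26%). A match is a run of letters in this window and says nothing of whether a factor bound there.

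AP-1 is the dimer of FOS and JUN family proteins that mitogens and stress switch on, and several of its genes are higher members below. The most shifted higher member whose matched promoter holds the AP-1 letters TGANTCA was IL1RL1, the receptor of interleukin-33. Its promoter lies at chr2:102337007-102337306 on the plus strand and holds 1 match, 191 bases before the start, shown in capitals.
IL1RL1: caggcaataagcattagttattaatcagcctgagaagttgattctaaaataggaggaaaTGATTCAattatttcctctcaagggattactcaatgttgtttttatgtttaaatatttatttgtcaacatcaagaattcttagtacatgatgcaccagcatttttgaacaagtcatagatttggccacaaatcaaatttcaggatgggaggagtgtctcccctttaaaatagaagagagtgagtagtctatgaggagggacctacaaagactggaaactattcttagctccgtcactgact
These letters were in 28 of 265 matched higher members (10.6%), 37 of 579 matched lower members (6.39%) and 423 of 9531 genes with a mean of at least 100 (4.44%).

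The 14 libraries held 24852118 to 44705518 reads. Sampling noise alone gives a chi-square per degree of freedom near 1. Parental 3 MLM gave 58.4 against Parental 1 and 58.7 against Parental 2, the LCC1 MRM libraries gave 108, and the other 7 pairs of libraries of 1 group gave 1.85 to 7.10. No 2 libraries were copies of each other. Genes that separate LCC1 from parental cells matched the cell label of both libraries. They do not bear on the medium label. The 5 genes on in LCC1 and off in parental cells had at most 9.13 normalized counts in Parental 3 MLM, and 80.5 to 246 in LCC1 2 MRM. The 8 with the opposite pattern had 40.4 to 631 in Parental 3 MLM and at most 5.47 in LCC1 2 MRM. Over all genes, LCC1 2 MRM lay closest to LCC1 1 MRM, with a root mean square log2 distance of 0.589. Parental 3 MLM lay closest to Parental 1 MLM, at 0.468, and lay 0.583 to 0.616 from the parental MRM libraries. Levels of 40 cell cycle genes were taken as the median log2 level minus each gene's mean over the 14 libraries. Parental 3 MLM had 0.41, against -0.34 and -0.39 in Parental 1 and 2 MLM and 0.26 to 0.28 in parental MRM. Whether the medium label holds was not tested. Whether the shift arose in the cultures or in library handling cannot be told apart from these files.

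Parental 3 MLM had 1209 lower genes (10.3%) and 990 higher genes (8.46%). LCC1 2 MRM had 1928 lower genes (16.5%) and 1085 higher genes (9.28%). The lower members made up 63.5% of the lower genes of Parental 3 MLM and 39.8% of those of LCC1 2 MRM. The higher members made up 35.4% and 32.3% of the higher genes of the same libraries. Genes past 0.5 in opposite directions were few: 35 were lower in Parental 3 MLM and higher in LCC1 2 MRM (0.299%), and 51 the reverse (0.436%). Across the 11696 genes the differences had a Pearson r of 0.58, given as a description, since genes are not replicates.

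**Figure D1:**
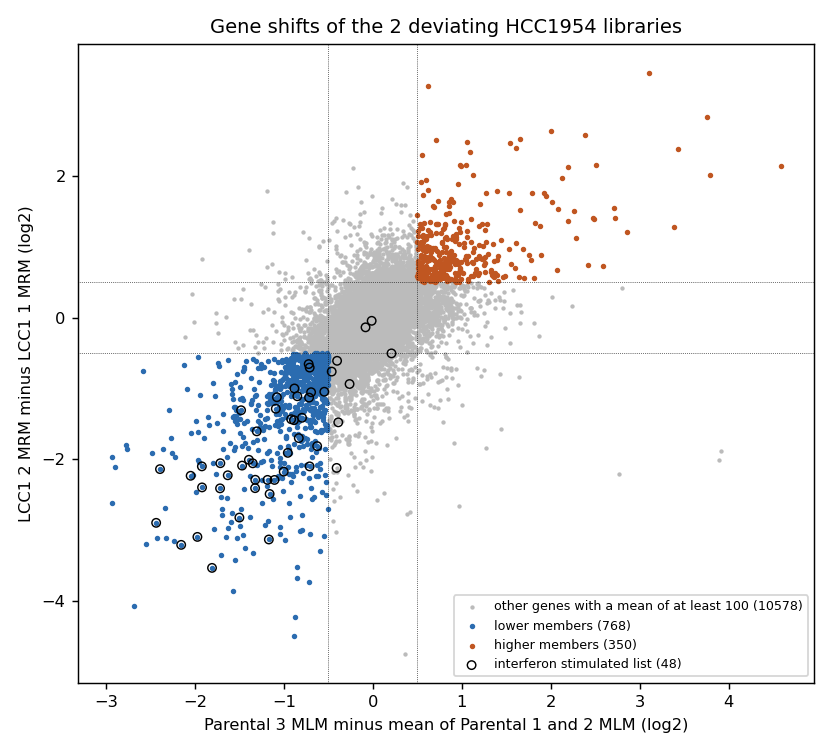
Each point is 1 gene with a mean of at least 100; the x axis is the shift of Parental 3 MLM and the y axis the shift of LCC1 2 MRM, both in log2, and dotted lines mark 0.5. The 768 lower members are blue, the 350 higher members orange, and 40 of the 48 ringed interferon stimulated genes lie among the lower members.

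At the threshold, the lower members FAM120B, ALAD and PITPNM1 were just inside, with Parental 3 MLM shifts of -0.50 each and LCC1 2 MRM shifts of -0.55, -0.76 and -0.71. KIAA1191, PLEKHS1 and PLXNB1 were just outside, each with a smaller shift that also rounds to -0.50. On the other side FRMD6, DRAP1 and FAM111A were just inside, and NOP56, RECQL4 and FAM3C just outside with Parental 3 MLM shifts that round to 0.50. The counting intervals come from the same libraries that chose the members, so they give no separate support. For 757 of 768 lower and 345 of 350 higher members the intervals excluded 0 in both differences. Among the 16 others was FOXI1, a transcription factor of ionocytes, which had 0 normalized counts in Parental 3 MLM, against 1.30 and 2.43 in Parental 1 and 2.

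The interferon stimulated genes were lower as a block. Of 48 with a mean of at least 100, 40 were lower members and 0 were higher members, against 6.57% and 2.99% of all genes. Their median shift was -1.08 in Parental 3 MLM and -1.96 in LCC1 2 MRM, against -0.01 and -0.03 for all genes. IFIT1, which binds foreign RNA, had 1012 normalized counts in Parental 3 MLM, against 8313 and 3402 in Parental 1 and 2. In LCC1 2 MRM it had 1827, against 8052 in LCC1 1 MRM. Both deviating libraries thus lay below every sister library. Its shifts were -2.39 and -2.14, and the counting interval of the second ran from -2.21 to -2.07.

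OAS2, which makes the 2′-5′ oligoadenylates that activate RNase L, had 2074 in Parental 3 MLM, against 13831 and 6172 in Parental 1 and 2. It had 1661 in LCC1 2 MRM, against 15367 in LCC1 1 MRM, shifts of -2.15 and -3.21. IFI44L, a gene induced by interferon, had 554 against 5022 and 1796 in the parental libraries, and 1423 against 10611 in the LCC1 libraries. ISG15, the ubiquitin-like modifier, had 1823 in Parental 3 MLM against 9687 and 3696, and 2482 in LCC1 2 MRM against 10326. In all of these genes Parental 1 also lay above Parental 2, so the parental baseline itself was spread. RSAD2 (viperin), MX2, XAF1, TRIM22 and LAMP3 had shifts of -1.81 to -2.05 in Parental 3 MLM and -2.10 to -3.53 in LCC1 2 MRM. BATF2, an interferon-induced AP-1 family factor outside the list, had 20.9 in Parental 3 MLM against 223 and 123, and 109 in LCC1 2 MRM against 678.

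The 8 genes of the interferon list that were not members missed the threshold in Parental 3 MLM, where their shifts ran from -0.46 for EIF2AK2 to 0.21 for SAMD9. In LCC1 2 MRM their shifts ran from -2.12 for IFITM2 to -0.05 for TRIM25, and 6 of the 8 were lower by at least 0.5.

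Among 26 signalling and sensor genes, 7 were lower members and 0 higher. Among them were STAT2 and IRF9 of the complex named above, IRF7, which amplifies interferon production, TLR3, a sensor of double-stranded RNA, and the GTPases GBP1 and GBP2. STAT2 had 3268 in Parental 3 MLM, against 6453 and 4848 in Parental 1 and 2, and 2481 in LCC1 2 MRM, against 6215 in LCC1 1 MRM. Its shifts were -0.78 and -1.32.
Receptor and kinase genes differed less. IFNAR1, a chain of the type I interferon receptor, had 3661 in Parental 3 MLM against 3639 and 3291, and 1822 in LCC1 2 MRM against 1876. JAK1 shifted by 0.02 and -0.01, and TYK2 by -0.07 and -0.11. SOCS3 and IRF1 went opposite ways. SOCS3, a feedback inhibitor of JAK kinases, had 1875 in Parental 3 MLM against 532 and 672, and 894 in LCC1 2 MRM against 1597. TMEM173 (STING), the adaptor of the DNA sensor cGAS, shifted by -0.05 in Parental 3 MLM and -1.76 in LCC1 2 MRM.
Interferon ligand genes, looked up after the values were seen, had few reads. IFNL1 had 2.61 normalized counts in Parental 3 MLM against 6.48 and 8.51, and 18.0 in LCC1 2 MRM against 33.9. IFNB1 had 0 in Parental 3 MLM against 1.30 and 0, and 12.5 in LCC1 2 MRM against 17.5.

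The label "low interferon" holds only against the sister libraries. The interferon list took 0.398% of all normalized counts in Parental 3 MLM, against 0.991% and 0.571% in Parental 1 and 2 MLM. It took 0.419% in LCC1 2 MRM, against 1.27% in LCC1 1 MRM. The parental MRM libraries had 0.459% to 0.501%, and the LCC2 MRM libraries had 0.343% and 0.339%, below both deviating libraries.

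**Figure D2:**
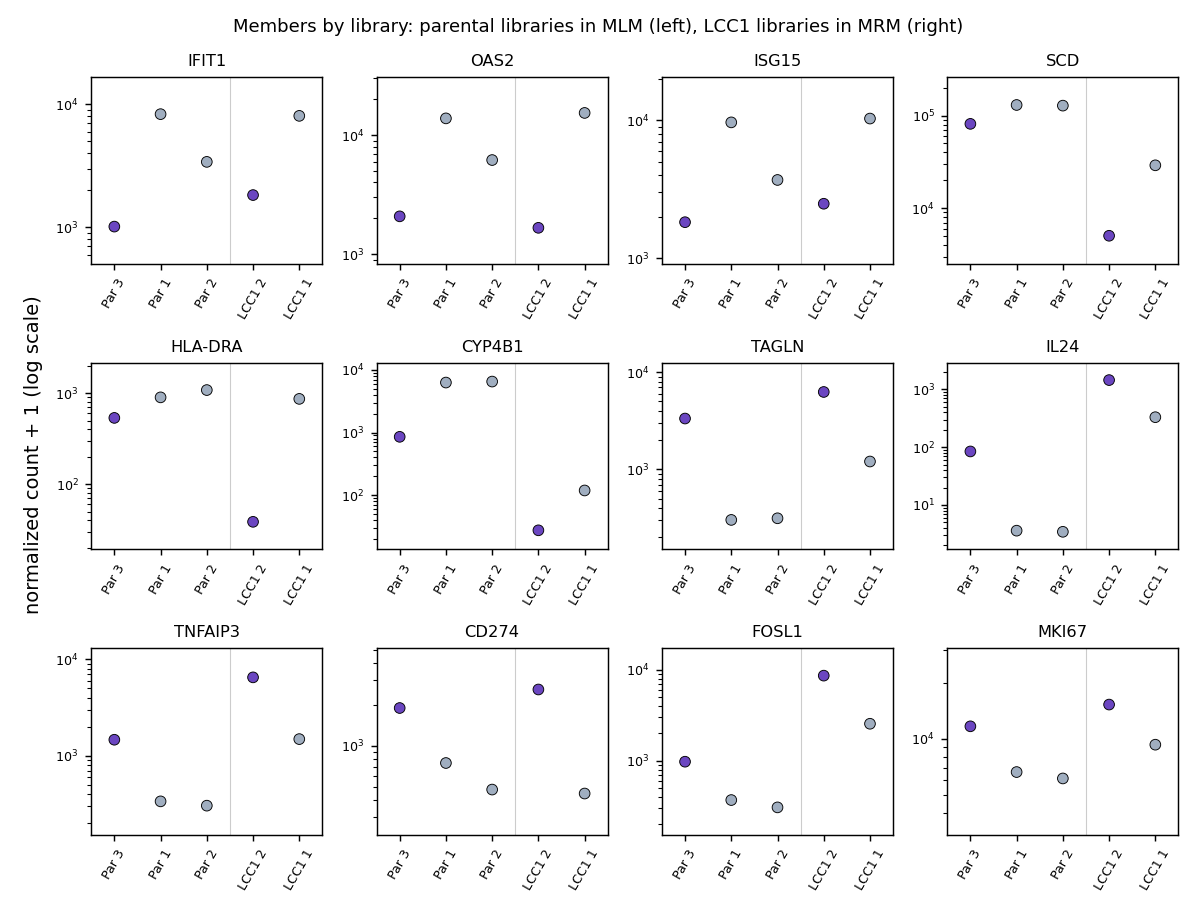
Normalized count plus 1 (log scale) of 12 members in the 5 libraries of the differences; purple points are Parental 3 MLM and LCC1 2 MRM, grey points their sister libraries. In every panel both purple points lie on the same side of their grey ones, which the choice of members largely fixed in advance.

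Antigen presentation genes were lower in part. Of 20 MHC class I and antigen processing genes, 3 were lower members and 0 higher: HLA-F, a nonclassical class I chain, PSME1, a proteasome activator subunit, and TAPBPL, a peptide editor. The list medians were -0.32 and -0.85. The class II genes were looked up after the values were seen: of 11, the 6 with a mean of at least 100 were all lower members. CIITA, the master regulator of class II transcription, had 138 in Parental 3 MLM against 223 and 230, and 26.6 in LCC1 2 MRM against 229. HLA-DRA had 535 against 900 and 1083, and 37.5 against 866. The class II difference was thus larger in LCC1 2 MRM, with HLA-DRA shifts of -0.88 and -4.49. Reads of the near-identical HLA-DRB1 and HLA-DRB5 may have been split between them.
Both ligands of the checkpoint receptor PD-1, also looked up afterwards, were higher members. CD274 (PD-L1) had 1885 in Parental 3 MLM against 747 and 478, and 2575 in LCC1 2 MRM against 447. PDCD1LG2 (PD-L2) had 454 against 142 and 96, and 759 against 231. They lay above every sister library, while the class II genes lay below.

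The list of NF-kB cytokines and chemokines was split, with 5 of 20 lower and 3 higher members. Lower were CXCL10 and CXCL11, chemokines induced by interferon, CX3CL1 (fractalkine) and the complement genes C3 and CFB. Higher were TNFAIP3, BIRC3 and CXCL8. TNFAIP3 (A20), a feedback inhibitor of NF-kB, had 1466 in Parental 3 MLM against 337 and 304, and 6480 in LCC1 2 MRM against 1488, shifts of 2.19 and 2.12. CXCL10 had 14.3 in Parental 3 MLM against 88.1 and 38.9, and 75.8 in LCC1 2 MRM against 314.

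The 12 most shifted lower members held BATF2, 4 genes of the interferon stimulated list, KIAA0125 and 6 genes of epithelial enzymes, mucins and inhibitors. MUC15, a membrane mucin, had 14.3 in Parental 3 MLM against 124 and 76.6, and 10.9 in LCC1 2 MRM against 199, shifts of -2.68 and -4.07. CYP4B1, a P450 enzyme of airway epithelium, had 854 against 6276 and 6507, and 26.6 against 118. PADI2, which converts arginine to citrulline in proteins, had 447 against 2277 and 2209, and 262 against 2270. CYP4Z1, CYP2F1 and SERPINA5 were the other 3 of these 6. CYP4Z1 rested on 2.34 normalized counts in LCC1 2 MRM against 29.8, and reads of its pseudogene CYP4Z2P may be mixed with it.
Of 42 epithelial and squamous differentiation genes, 8 were lower and 3 higher members. CEACAM6, an adhesion protein of glandular epithelium, had 4922 in Parental 3 MLM against 20406 and 15183, and 425 in LCC1 2 MRM against 1212. KRT17, a keratin of basal and wounded epithelium, was higher, with 25806 against 15693 and 16203, and 92635 against 55686. ERBB2, the amplified receptor gene of the line, was a lower member. It had 198009 in Parental 3 MLM against 292444 and 307479, and 119992 in LCC1 2 MRM against 194381, shifts of -0.60 and -0.70.

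Lipid synthesis and detoxification genes were lower wherever they were members, although some genes of these lists were higher in Parental 3 MLM. Of 28 cholesterol and fatty acid synthesis genes, 4 were lower and 0 higher: SCD, FASN, ACSS2 and MVD, with list medians of -0.30 and -0.52. SCD, which puts the double bond into stearate, had 81486 in Parental 3 MLM against 130309 and 128260, and 5032 in LCC1 2 MRM against 29047. Of 20 NRF2 targets and metallothioneins, 5 were lower and 0 higher members, 4 of them aldo-keto reductases. The list was split in Parental 3 MLM, with 5 genes lower and 4 higher by at least 0.5 and a median of -0.10. In LCC1 2 MRM 13 were lower and 0 higher, with a median of -0.81. AKR1B10, a retinal and aldehyde reductase, had 1426 against 2479 and 2568, and 315 against 2560. AKR1C1 had 1567 against 2770 and 2936, and 173 against 784, though reads may be shared with the near-identical AKR1C2. Of 29 lysosome and autophagy genes, 5 were lower and 0 higher, among them the protease gene CTSD with shifts of -0.69 and -1.54. Of 10 histone genes 3 were lower and 0 higher.

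Growth restraint genes gave 6 lower members and 1 higher of 29. CDKN1C (p57), an inhibitor of cyclin-dependent kinases, had 40.4 in Parental 3 MLM against 109 and 139, and 31.3 in LCC1 2 MRM against 63.7. BTG2, an antiproliferative gene, shifted by -1.04 and -1.60. CDKN2B (p15) was lower too, and IRS2, an insulin receptor substrate, was higher. Of 17 p53 targets, 4 were lower and 1 higher. Of 35 stress response genes, 3 were lower and 1 higher, near the shares of 6.57% and 2.99% among all genes. NUPR1, a stress-induced chromatin protein, had 2382 in Parental 3 MLM against 4556 and 5015, and 114 in LCC1 2 MRM against 629.

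The cell cycle list differed in extent between the libraries. Of 40 genes, 9 were higher members and 0 lower. In Parental 3 MLM 34 of the 40 were higher by at least 0.5, where 8.46% of all genes were. In LCC1 2 MRM only those 9 were, where 9.28% of all genes were. The medians were 0.83 and 0.20. RRM2, a subunit of ribonucleotide reductase, had 18767 in Parental 3 MLM against 5939 and 5068, and 10300 in LCC1 2 MRM against 5868. MKI67, the proliferation antigen Ki-67, had 11664 against 6642 and 6139, and 15246 against 9303. CCNE2, which drives entry into S phase, shifted by 1.56 and 0.76.
Glycolysis and hypoxia genes were likewise uneven, with 3 higher members of 27 and medians of 0.65 and -0.11. LDHA, which makes lactate, had 42982 in Parental 3 MLM against 16161 and 16913, and 35635 in LCC1 2 MRM against 23131. ENO2 and BNIP3 were the others.

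The 12 most shifted higher members included cytokine and contractile genes. IL1RL1 had 426 in Parental 3 MLM against 32.4 and 29.2, and 568 in LCC1 2 MRM against 79.1, shifts of 3.75 and 2.83. TAGLN (transgelin), an actin-binding protein of contractile cells, had 3339 against 302 and 314, and 6264 against 1206. IL24, a cytokine of the IL-10 family, had 83.4 against 2.59 and 2.43, and 1452 against 330. The Parental 3 MLM shift of IL24 was 4.59, with a counting interval from 3.63 to 6.98 against the pooled reads of Parental 1 and 2. IL32, SGK1, CST6, SPOCD1, COL15A1, TMEM156, OBP2B and KRTAP2.3 completed the 12 with TNFAIP3. The smaller shift of each of the 12 was at least 1.75.
Of 20 immediate early genes, 5 were higher members and 1, JUND, was lower. FOSL1 (FRA-1), an AP-1 subunit, had 977 in Parental 3 MLM against 369 and 306, and 8647 in LCC1 2 MRM against 2555. EGR1 had 2749 against 904 and 890, and 1203 against 582. FOS, DUSP1 and IER3 were the other higher members. Of 18 ERK feedback genes, 4 were higher and 1 lower. The lower one was SPRY1, an inhibitor of receptor kinase signalling, with shifts of -1.08 and -1.91. DUSP6, DUSP7 and SPRED1, which also dampen ERK, were higher.
Of 16 YAP and TEAD targets, 2 were higher, AXL and F3. Of 32 TGF-beta and matrix genes, 6 were higher and 4 lower. TNC (tenascin C), an extracellular matrix glycoprotein, had 12410 in Parental 3 MLM against 8156 and 8229, and 28611 in LCC1 2 MRM against 14899. ITGA2, the collagen-binding integrin chain, had 5560 against 3238 and 3005, and 8474 against 3927. In both genes each deviating library lay above its sister libraries. Heat shock genes gave 2 higher and 1 lower of 15, the lower count being near the 6.57% of all genes. None of 43 ribosomal protein genes was a member.

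**Figure D3:**
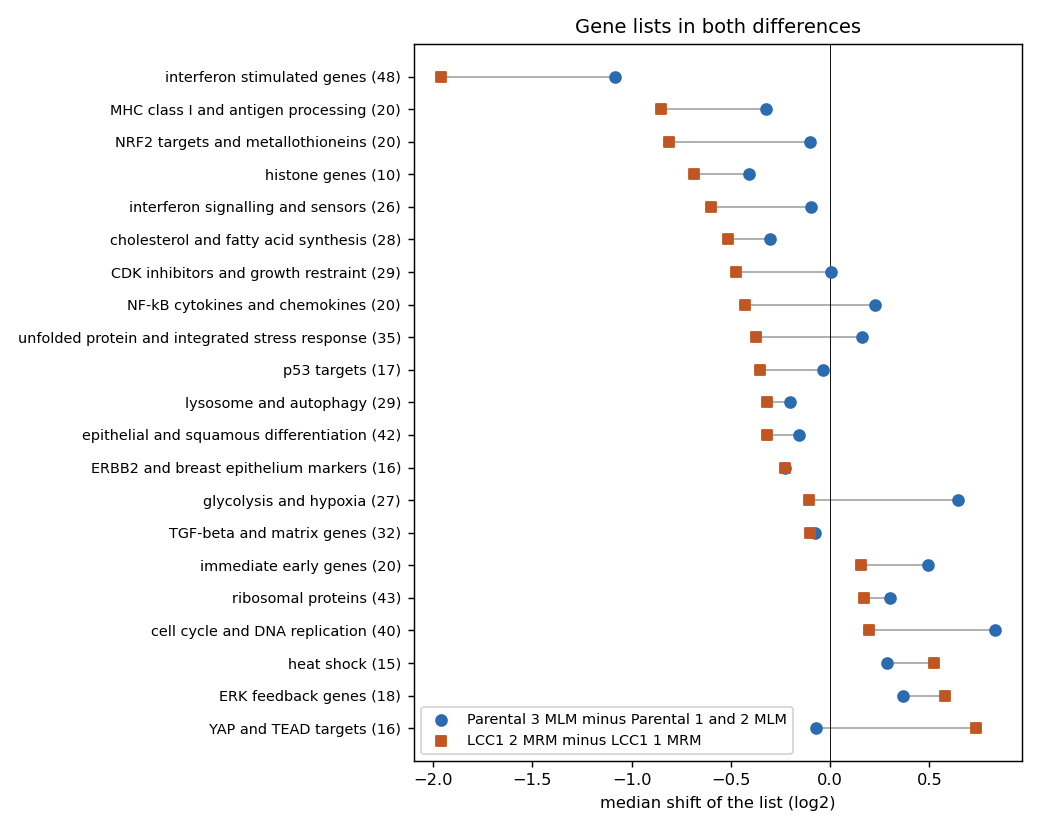
Median shift in log2 of each gene list in Parental 3 MLM (blue circles) and LCC1 2 MRM (orange squares); the number of genes with a mean of at least 100 is in brackets. The interferon stimulated list is farthest below 0 in both, at -1.08 and -1.96, and the cell cycle list is at 0.83 and 0.20.

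Markers of other cells that a culture could hold were summed in normalized counts. The summed fibroblast markers were 1037 in Parental 3 MLM against 802 and 816, and 1588 in LCC1 2 MRM against 1731. COL3A1, DCN, LUM, PDGFRA, POSTN and THY1 had at most 10 normalized counts in every HCC1954 library. FAP, of the same list, was higher, with 507 in Parental 3 MLM against 161 and 179, and 809 in LCC1 2 MRM against 614. COL1A1 was lower, with 524 against 638 and 636, and 758 against 1083. The blood cell sum was 1439 against 621 to 751, and 1263 against 1342, with CD3E, CD4 and HBB at most 10 everywhere. CD68, a lysosomal protein of macrophages that other cells also make, took most of it in Parental 3 MLM, with 1070 against 508 and 356. PTPRC (CD45), which marks all white blood cells, had 6.52 against 6.48 and 4.86. The endothelial sum was 799 against 988 to 1190, and 1047 against 1451, with EMCN at most 10. The part of these cells in the shifts was not tested. The 17 ERBB2 and breast epithelium markers summed to 688683 against 825005 to 832998, and 499730 against 555677. The most abundant genes weigh most in this sum, and they did not move together. In LCC1 2 MRM ERBB2 was lower, while KRT8 had 96544.5 against 62875.9 and KRT18 had 47208 against 31526. Of the 16 with a mean of at least 100, 4 were lower members and 0 higher. In LCC1 2 MRM 6 of the 16 were lower and 2 higher by at least 0.5, and 12 of the 16 were below 0 in each difference.

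The members were then followed in 7 other differences between libraries of 1 HCC1954 group. In 6 of them neither library was in the differences that chose members, though all entered the mean over the 14 libraries. Parental 1 MLM minus Parental 2 MLM sets the baseline libraries of the rule against each other. Over the 6, and also over all 7, the median shift ran from -0.06 to 0.02 for the lower members and from -0.04 to 0.06 for the higher members. The members as sets thus had medians near 0 in the other pairs.
The interferon list did not follow that pattern. Parental 1 MLM minus Parental 2 MLM had a list median of 0.77, and 42 of 48 genes were higher by at least 0.5. The second LCC2 MLM library minus the first had -0.41, with 18 lower. The 728 lower members outside the list had a median of -0.02 in each of these pairs. The median of the interferon stimulated genes was thus away from 0 in pairs where that of the other lower members was near it. The first of these pairs is the rule's own baseline.
In H2087, members and interferon genes with a mean of at least 100 there numbered 491 lower, 266 higher and 43. Set against the median of its group, the median of the lower members lay between -0.06 and 0.11 in every H2087 library, and that of the higher members between -0.06 and 0.07. The median of the 43 interferon genes was more spread, from -0.54 in LCC 6 MLM to 0.27 in LCC 3 MLM. Each H2087 LCC library in a medium is a derivative of its own.

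**Figure D4:**
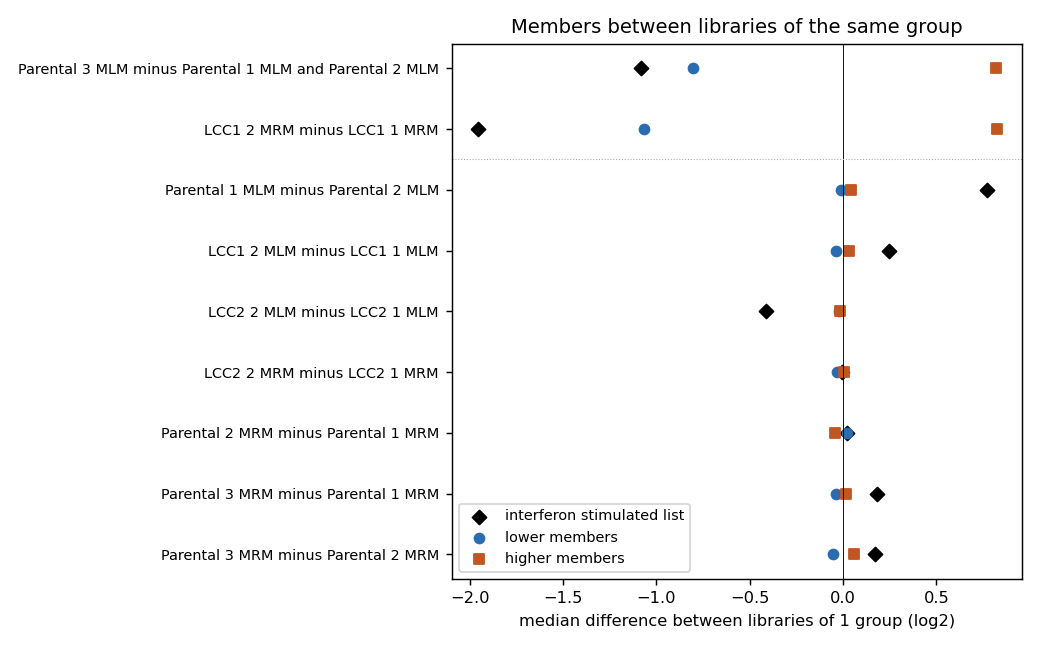
Median log2 difference between libraries of 1 group for the interferon stimulated list (diamonds), lower members (circles) and higher members (squares); the top pairs chose the members, and Parental 1 and 2 MLM are baseline libraries of that choice. In the other 7 pairs the members stay within -0.06 and 0.06, while the interferon list reaches 0.77 and -0.41.

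**Figure D5:**
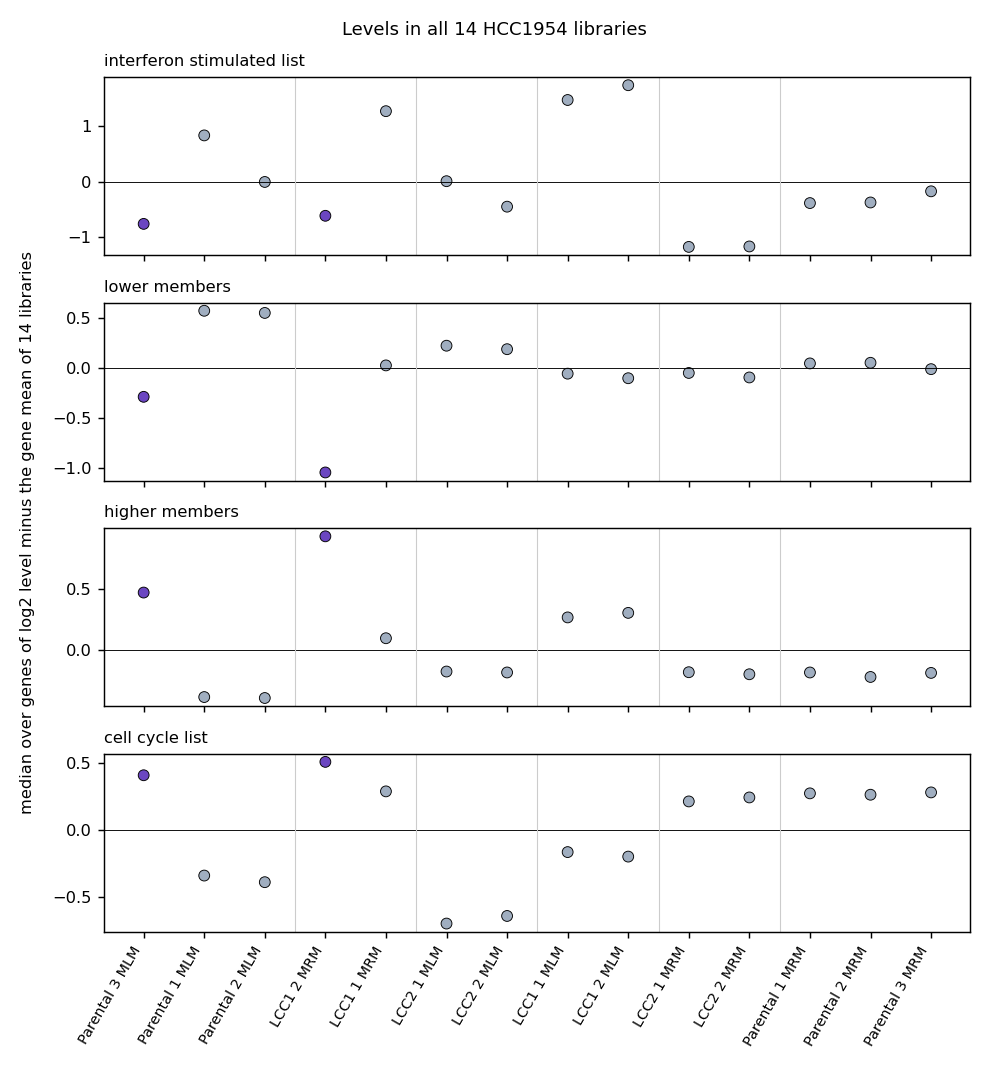
Median over genes of the log2 level minus the gene's mean over all 14 libraries, one panel per gene group; purple points are Parental 3 MLM and LCC1 2 MRM. The lower members are lowest in LCC1 2 MRM (-1.04) and next in Parental 3 MLM (-0.29), while the interferon list is lowest in LCC2 MRM.

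Contrasts among the 9 libraries left out of both differences asked whether the members respond to medium, derivative or latency. These 9 libraries did enter the mean of at least 100 over all 14 libraries, so high values there helped some genes become members. Genes were tested with limma on log2(normalized count + 1) over 15443 genes with a mean of at least 10. A call is a Benjamini-Hochberg adjusted p below 0.05. The labels do not say whether the libraries of 1 group came from separate cultures, and the p-values rest on their spread alone, which may be technical. These contrasts called most genes, so members are read against the share called among the 11696 genes with a mean of at least 100.

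In LCC2, MLM against MRM, 5243 genes were called higher (34.0%) and 4511 lower (29.2%). With scaling to the library total, the split was 4410 higher and 5460 lower. Among genes with a mean of at least 100, 39.9% were higher and 31.7% lower in MLM. Of the 768 lower members, 438 were higher in MLM (57%) and 139 lower (18.1%), with a median log2 change of 0.28 against 0.05. Of the 350 higher members, 136 were higher and 132 lower. Of the 48 interferon stimulated genes, 44 were higher in MLM and 0 lower, with a median of 0.93. Of the 40 cell cycle genes, 37 were lower in MLM and 0 higher, with a median of -0.86.
IFIT1 had 4620 and 2456 in LCC2 MLM, against 450 and 452 in LCC2 MRM. Its log2 change was 2.90 ± 0.18 (SE, limma adjusted p = 1.1e-11), and the MLM libraries did not overlap those in MRM. That SE uses a spread estimated over the 9 libraries, while the MLM libraries had an SD of 1530 and those in MRM 1.37 (n = 2 each). SCD rose too, with 63211 ± 307 in MLM and 28327 ± 21.9 in MRM (SD, n = 2 each), a log2 change of 1.16 (limma adjusted p = 1.4e-15). MKI67 fell to 5766 ± 270 in MLM, against 13062 ± 32.1 in MRM (SD, n = 2 each), a log2 change of -1.18 (limma adjusted p = 9.1e-15).
Exceptions were large. HPGD, a lower member that degrades prostaglandins, fell by 3.15 on the log2 scale in MLM, where it had 286 and 282, against 2519 and 2544 in MRM. Among higher members, TAGLN rose by 2.23 and DUSP1 by 2.28, whereas FOS fell by 1.57 and SERPINB2, a plasminogen activator inhibitor, fell by 2.27.

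In MLM, LCC2 against LCC1, 5007 genes were called higher (32.4%) and 5291 lower (34.3%). With scaling to the library total, the split was 6643 higher and 3883 lower, as the median of all genes moved to 0.14. Among genes with a mean of at least 100, 34.3% were higher and 39.9% lower. Of the lower members, 428 were higher in LCC2 and 221 lower, with a median of 0.34. Of the higher members, 52 were higher and 231 lower, with a median of -0.51. All 48 interferon stimulated genes were lower in LCC2, with a median of -1.88, whereas most lower members were higher there.
OAS2 had 2469 and 1645 in LCC2 MLM, against 18209 and 22901 in LCC1 MLM, a log2 change of -3.34. CYP2F1, by contrast, had 3530 and 3410 in LCC2 MLM, against 151 and 123 in LCC1 MLM, a change of 4.66 ± 0.08 (SE, limma adjusted p = 2.0e-20). BPIFB1, a secreted airway protein, rose by 5.02. Among higher members, SERPINB2 fell to 14.1 ± 2.72 in LCC2, against 335 ± 17.5 in LCC1 (SD, n = 2 each) (limma adjusted p = 5.0e-17). TAGLN rose by 2.56 and thus went against most higher members.

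In MRM, LCC2 against parental cells, 5693 genes were called higher (36.9%) and 5733 lower (37.1%). With scaling to the library total, the split was 7705 higher and 4139 lower, and the median of all genes moved to 0.21. Among genes with a mean of at least 100, 36.3% were higher and 44.5% lower. Of the lower members, 292 were higher in LCC2 and 381 lower. Their median was -0.15, and 0.05 with scaling to the library total. Of the higher members, 163 were higher and 135 lower. Of the interferon stimulated genes, 5 were higher and 40 lower, with a median of -0.90.
The single genes went both ways. KRT4 had 64.6 and 62.2 in LCC2 MRM, against 2877, 2785 and 2611 in parental MRM, a log2 change of -5.42 ± 0.11 (SE, limma adjusted p = 2.0e-20). MUC15 had 139 and 149 in LCC2, against 41.5, 29.7 and 39.3 in parental cells, a change of 1.95. It averaged 106 over the 14 libraries, just above the floor of 100, and its LCC2 values helped it pass. CD274 fell by 2.36 and PDCD1LG2 by 3.65, while TAGLN rose by 1.56.

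The deviating libraries also bear on the latency comparisons that hold them. In each medium the 4 LCC libraries are 2 each of LCC1 and LCC2, pooled as 1 group. The p-values treat them as separate replicates, although only 2 derivatives were compared. LCC2 against LCC1 in MLM alone called 10298 of 15443 genes. In MLM, LCC (4 libraries) against parental cells (3 libraries), 2672 of 15186 genes were called higher (17.6%) and 2869 lower (18.9%). With scaling to the library total the split was 3307 higher and 2106 lower. Among genes with a mean of at least 100, 16.2% were higher and 22.3% lower. Lower members called lower in LCC numbered 174 (22.7%), near the 22.3% of genes with that mean. Without Parental 3 MLM they numbered 265, although all calls numbered 5190, against 5541 with every library. Over all tested genes, 2697 were called lower without Parental 3 MLM, against 2869. Without Parental 1, 87 lower members were called lower and without Parental 2, 91. Totals were then 3660 and 3773, of which 1839 and 1899 were lower. The median of the lower members was -0.17 with all libraries and -0.46 without Parental 3 MLM.
In MRM, LCC (4 libraries) against parental cells (3 libraries), 2959 of 15432 genes were called higher (19.2%) and 2973 lower (19.3%). With scaling to the library total the split was 3871 higher and 2160 lower. The total was 5932, 7431 without LCC1 2 MRM and 6347 without LCC1 1 MRM. Leaving out 1 parental library gave 3669 to 3729. Among genes with a mean of at least 100, 18.2% were higher and 22.6% lower. Lower members called higher in LCC numbered 81, and 192 without LCC1 2 MRM, while those called lower numbered 163 and 220. Without LCC1 1 MRM, 82 were called higher and 231 lower, and without 1 parental library 53 to 54 and 84 to 87. Higher members called lower numbered 22, with 73 without LCC1 2 MRM, 18 without LCC1 1 MRM and 10 to 11 without 1 parental library. Since the rule used these libraries, the member counts here are a description.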

How the data were processed

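RNA was measured by sequencing in 14 HCC1954 and 16 H2087 libraries; a further H2087 library in the labels (Parental 3 MLM), which no column used here matched, and the ChIP samples were not analysed here. The authors deposited normalized read counts per gene, a signal in which each value is a whole read count divided by a library's size factor. Dividing by each library's smallest non-zero value gave whole reads for 100% of values within 0.01 reads. DESeq2 1.8.1, HTSeq 0.6.1p1 and Bowtie2 2.2.4, and the builds hg19 and GRCh37, stand in the submitters' processing notes, with no role given. Depth was 24852118 to 44705518 reads in HCC1954, and counting intervals cover counting error only. Differences used log2(value + 1). Contrasts used limma 3.58.1 with trend, Benjamini-Hochberg adjustment and no block, for genes averaging 10 or more, and each was tested on simulated data. edgeR 4.0.16 (quasi-likelihood) and DESeq2 1.42.0 on the recovered reads were alternatives, with other pseudocounts, scalings, filters and left-out libraries. R was 4.3.3 and Python 3.11.15.

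The members and the 24 gene lists were chosen with earlier results of these data known. Named were the 12 most shifted members per direction, up to 8 members per list, 3 genes on either side of the threshold and 4 per direction and contrast. Interferon ligands, class II genes and PD-1 ligands were looked up after the values were seen. Other genes named in the contrasts, such as MKI67, SCD, KRT4 and MUC15, are members already named for their shifts. Some genes that the rule names are not reported here.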

Additional observations from a re-analysis of the deposited data

How the results depend on the processing

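The limits are that each difference is 1 library, that baselines hold 1 or 2 libraries, and that medium, derivative and parental cells differ between the deviating libraries. With a threshold of 0.4 there were 559 higher members, and with a threshold of 1 there were 197 lower and 53 higher. A mean of at least 10 gave 1187 lower and 750 higher. Pseudocounts of 0.5 and 5, means of 50 and 200, total and TMM scaling and either parental baseline kept both counts within 1.5 times. Leaving out Parental 1 or Parental 2 moved some list medians of Parental 3 MLM by more than their spread between other libraries. Without Parental 1 and without Parental 2, the interferon stimulated median was -0.69 and -1.44, with 31 and 44 lower members, and MHC class I was -0.17 and -0.42. The same pair of medians was -0.030 and 0.0075 for growth restraint, 0.35 and 0.27 for heat shock, 0.41 and 0.52 for immediate early genes, 0.45 and 0.31 for ERK feedback, -0.21 and -0.17 for epithelial genes, -0.035 and -0.10 for p53 targets, -0.17 and -0.24 for lysosome genes, -0.35 and -0.40 for histones and -0.24 and -0.20 for breast markers. Over 630 alternatives for 126 shifts of 63 named genes, no shift of at least 0.5 in size changed sign. Smaller shifts were not checked for sign, and members chosen at 0.5 were unlikely to change theirs.

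In the group pairs checked, same-numbered libraries did not deviate together (correlations -0.18 to 0.19). Parental MLM with Parental MRM and LCC1 MLM with LCC1 MRM were not checked, so a pairing there is not known. With a replicate block, LCC against parental cells gave 3602 calls in MLM and 2310 in MRM. The block gave 9912 calls for LCC2 MLM against MRM, 10520 for LCC2 against LCC1 and 11243 for LCC2 against parental cells. A block with the LCC1 numbers crossed, added after seeing the data, gave 10525. The latency counts ran from 3660 to 5190 in MLM and from 3669 to 7431 in MRM over left-out libraries. Leaving out 1 library gave 8289 to 8697, 9323 to 9564 and 10245 to 11287 calls in the LCC2 contrasts. The cause was not tested.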

Other observations

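The deviating libraries also disagreed in places. Of the 51 genes higher in Parental 3 MLM and lower in LCC1 2 MRM, 4 were glycolysis and hypoxia genes. The interferon signalling, stress response and NRF2 lists held 2 each, and every other list at most 1. The glycolysis and hypoxia list has 27 of the 11696 genes with a mean of at least 100. In Parental 3 MLM 20 of the 27 were higher by at least 0.5, against 8.46% of all genes, and 1 was lower. In LCC1 2 MRM 6 were lower and 4 higher. The 35 genes with the reverse pattern held 0 of that list, too few genes for the 0 to be informative. NDRG1, a stress-responsive gene of the hypoxia list, had 9963 normalized counts in Parental 3 MLM against 3884 and 4747 in Parental 1 and 2 MLM, and 1029 in LCC1 2 MRM against 1821 in LCC1 1 MRM. EGLN3, an oxygen-sensing prolyl hydroxylase, had 4496 against 2073 and 2670, and 427 against 707. The genes named next were chosen after their values were seen. SERPINB3, a serpin of squamous epithelium, had 412 in Parental 3 MLM against 24.6 and 29.2, and 390 in LCC1 2 MRM against 1571. Its near-identical neighbour SERPINB4 had 269 against 15.5 and 18.2, and 254 against 940, and how reads were split between them is not known. KRT14, a basal keratin, went the reverse way, with 587 in Parental 3 MLM against 1606 and 1473, and 263 in LCC1 2 MRM against 135. Each of these differences rests on 1 library, and none was tested.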
